A study of Sus scrofa with 10 samples.

Results

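The genes described here code for 7 chains of the fibrillar collagens and of collagen VI: COL1A2 of type I, COL3A1 of type III, COL5A1, COL5A2 and COL5A3 of type V, and COL6A2 and COL6A3 of type VI. They were chosen by name, and each was read from the probe sets whose array annotation gives that 1 symbol and no other. This gave 16 probe sets of 23999 tested, and the brightest one by its average over all arrays was taken for its gene, so that the 7 genes are 7 of 6765. Other chains of these types, such as COL1A1 and COL6A1, were not analysed here. Transcripts were measured in aortic valve leaflets of female swine with the Affymetrix GeneChip Porcine Genome array, on which a probe set is a group of short probes for 1 transcript. There were 4 arrays from adult Rapacz Familial Hypercholesterolemic (RFH) swine, 2 years old, 3 from juvenile RFH swine, 3 months old, and 3 from juvenile wild-type (WT) swine, also 3 months old. The RFH breed inherits a high blood cholesterol level, and the WT animals are labelled as Rapacz Wisconsin Miniature Swine with the genotype wild type (RFH -/-). All animals ate standard chow, and adult WT leaflets were not analysed here. Age, the time spent with high cholesterol and any difference in the handling of the adult and juvenile arrays therefore cannot be told apart. Whether each array stands for its own animal is not stated in the labels, and p-values then measure only the spread between these samples.

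Fibrillar collagens are secreted as triple-helical procollagens, trimmed at their ends and assembled into the cross-linked fibrils that carry the load on a valve leaflet, where they are densest in the layer called the fibrosa. Type I is the bulk of these fibrils, type III is built into them, and type V is a minor component that starts fibril assembly and limits fibril width. Collagen VI forms beaded microfilaments around cells and between fibrils. In a valve these proteins are made chiefly by valve interstitial cells, the fibroblast-like cells of the leaflet.

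Markers of valve interstitial cells or fibroblasts were read as a description. They cannot test the leaflet label, since no other tissue is on these arrays. Of 10 such genes 8 were measured, and VIM, DCN, LUM and THY1 lay high in every group, with log2 means of 14.33, 14.09, 13.67 and 13.70 in adult RFH, 14.39, 14.29, 13.89 and 13.85 in juvenile RFH and 14.45, 14.34, 13.90 and 13.85 in juvenile WT arrays. None of these 4 genes passed the test in either comparison. Of the other 4, in adult against juvenile RFH leaflets S100A4 rose by 1.29 (limma adjusted p = 0.00497), PRRX1 fell by 1.03 (limma adjusted p = 0.0185), PDGFRB fell by 0.42 (limma adjusted p = 0.0474, not called without adult replicate 1 or 2 or any 1 juvenile array, adjusted p up to 0.154) and TCF21 gave 0.44 (limma adjusted p = 0.194). One array stood apart: juvenile RFH replicate 2 had a mean of 9.07 over 10 cardiac muscle markers, against 5.15 to 5.69 in the other 9 arrays. The median SD of a probe set was 0.188 over the adult RFH, 0.125 over the juvenile RFH and 0.0949 over the juvenile WT arrays, whose number limits the precision.

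Adult RFH leaflets had lower values than juvenile RFH leaflets for all 7 collagen genes, and 5 of the 7 fell with an adjusted p under 0.05 (limma, Benjamini-Hochberg over 23999 probe sets). COL5A1 fell 3.85-fold, COL6A3 2.75-fold, COL5A3 1.98-fold, COL5A2 1.88-fold and COL3A1 1.60-fold. COL1A2 and COL6A2 did not pass. Over all genes 7.85% were called lower (531 of 6765) and 11.4% higher. The 7 changes had a median of -0.91 on the log2 scale, between -1.94 and -0.33, beside a median of 0.02 over all genes, of which 47.4% had a negative change. Without juvenile RFH replicate 2, 5 of the 7 were again called, with a median of -1.02. In bulk tissue, fewer cells that make a transcript and less of it per cell cannot be told apart.

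In juvenile RFH against juvenile WT leaflets none of the 7 was called by limma, and 2 had an unadjusted p under 0.05. A fit with array weights called those 2, but the share of all genes that this fit called is not given here. In the main fit, without array weights, 0.0443% of all genes were called lower (3 genes) and 0.0887% higher (6 genes). In that main fit 15.1% of all genes (1019 genes) had an unadjusted p under 0.05. The 7 changes had a median of -0.11, with 4 negative and 3 positive, beside a median of 0.07 over all genes. Both comparisons use the juvenile RFH arrays, so that a high or low juvenile RFH value moves them in opposite directions.

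**Figure D1:**
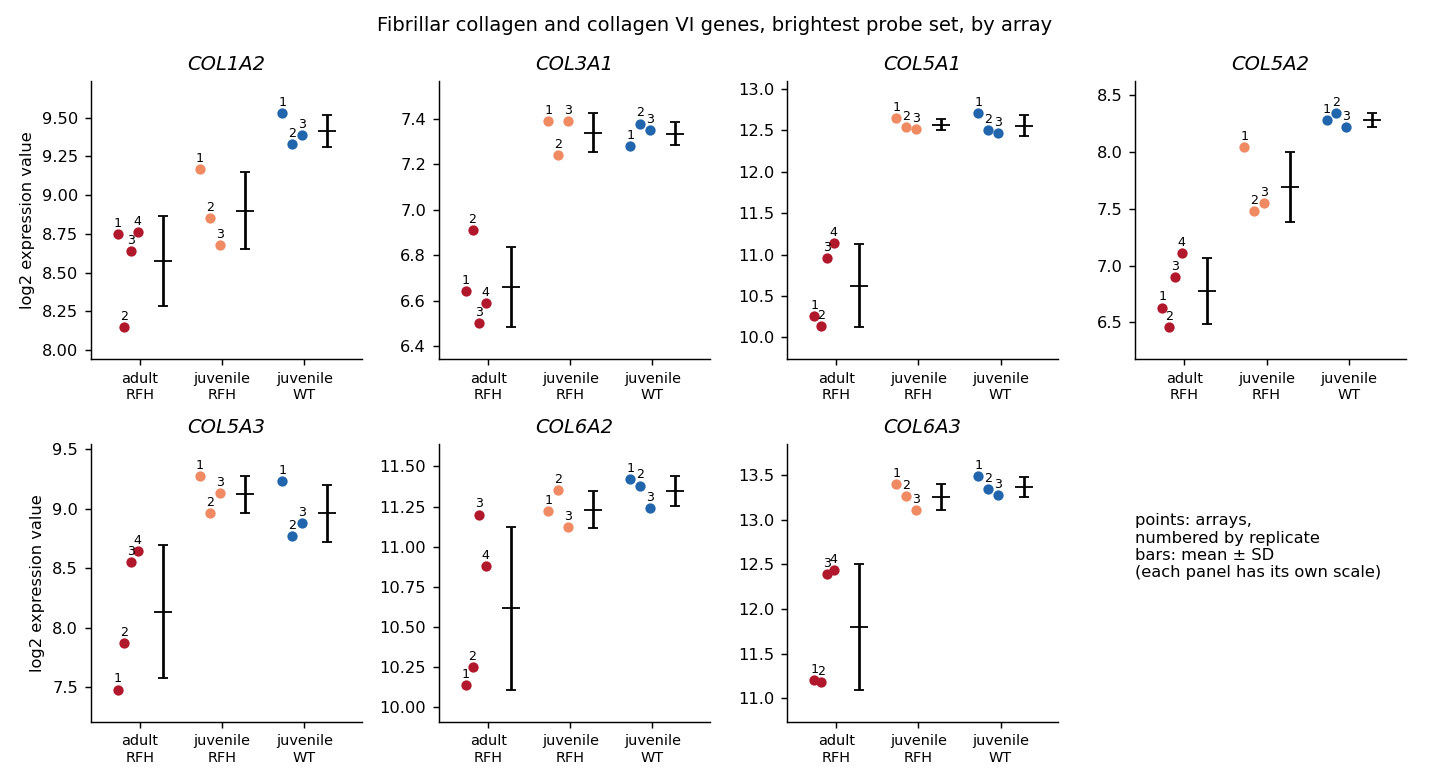
Log2 expression value of the brightest probe set of each collagen gene (vertical axis, own scale in each panel) in every array of adult RFH (n = 4), juvenile RFH (n = 3) and juvenile WT (n = 3) leaflets, with bars for mean ± SD beside the points. For COL5A1 the adult arrays lie between 10.14 and 11.14, all below the juvenile RFH arrays at 12.52 to 12.65, while for COL6A2 adult replicate 3, at 11.20, lies within the juvenile RFH range.

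COL1A2 codes for the second chain of type I collagen, which pairs with the product of COL1A1 in each triple helix. Its brightest probe set read 8.75, 8.15, 8.64 and 8.76 in adult RFH arrays, 9.17, 8.85 and 8.68 in juvenile RFH arrays and 9.53, 9.33 and 9.39 in juvenile WT arrays (log2). Adult replicates 1 and 4 lay above the lowest juvenile RFH array, so the RFH groups overlapped, while every juvenile RFH array lay below every juvenile WT array. The means were 8.58 ± 0.29 (SD, n = 4) for adult RFH, 8.90 ± 0.25 (SD, n = 3) for juvenile RFH and 9.42 ± 0.11 (SD, n = 3) for juvenile WT leaflets. The adult minus juvenile RFH change was -0.33 ± 0.16 (SE, limma adjusted p = 0.202) and the juvenile RFH minus WT change -0.52 ± 0.17 (SE, limma adjusted p = 0.261, unadjusted p = 0.0136). With array weights the juvenile change was called (-0.53, limma adjusted p = 0.0414), in a fit whose share of calls over all genes is not given here.

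The other COL1A2 probe set lay lower and gave another picture. It read 5.48, 5.02, 5.52 and 5.53 in adult RFH, 7.29, 6.39 and 6.58 in juvenile RFH and 7.71, 6.93 and 7.27 in juvenile WT arrays. All adult arrays were below all juvenile arrays, and the fall against juvenile RFH was 2.58-fold (-1.37 ± 0.24, SE, limma adjusted p = 0.00424). Juvenile RFH and WT overlapped here, with a change of -0.55 ± 0.25 (SE, limma adjusted p = 0.41). With the mean of both probe sets in place of the brighter one, COL1A2 passed the test for adult against juvenile RFH (-0.85, limma adjusted p = 0.0133). The call for COL1A2 thus depended on the probe set.

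COL3A1 codes for the single chain of type III collagen, the fibril collagen of stretchable tissues. Its 1 probe set read 6.64, 6.91, 6.50 and 6.59 in adult RFH arrays, 7.39, 7.24 and 7.39 in juvenile RFH arrays and 7.28, 7.38 and 7.35 in juvenile WT arrays. All adult arrays lay below all juvenile ones, and the juvenile groups overlapped. The fall in adults was 0.68 on the log2 scale, 1.60-fold (limma adjusted p = 0.00236), and the juvenile RFH minus WT change was 0.01 ± 0.11 (SE, limma adjusted p = 0.992). These readings lay near the array medians of 6.96 to 7.03, and levels are not set against those of other probe sets, since probes differ in brightness.

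COL5A1 codes for the chain found in nearly every form of type V collagen, and among the brightest probe sets it had the largest fall of the 7. With all 6 of its probe sets averaged the change was -0.72 (limma adjusted p = 0.00224), beside -1.46 for COL6A3. The brightest of its 6 probe sets read 10.26, 10.14, 10.96 and 11.14 in adult RFH, 12.65, 12.54 and 12.52 in juvenile RFH and 12.71, 12.50 and 12.47 in juvenile WT arrays. Adults stood clear of both juvenile groups by more than 1 log2 unit, and replicates 3 and 4 were above replicates 1 and 2. The change was -1.94 ± 0.22 (SE, limma adjusted p = 0.000411) for adult against juvenile RFH and 0.01 ± 0.24 (SE, limma adjusted p = 0.993) for juvenile RFH against WT.

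The next 2 COL5A1 probe sets by brightness fell as well. The first of them had means of 10.45 ± 0.50 (SD, n = 4) in adult RFH, 11.81 ± 0.03 (SD, n = 3) in juvenile RFH and 11.97 ± 0.10 (SD, n = 3) in juvenile WT arrays, a fall of 2.56-fold in adults (limma adjusted p = 0.00275). The next had means of 6.94 for adult RFH, 7.63 for juvenile RFH and 7.74 for juvenile WT leaflets, and fell 1.61-fold (limma adjusted p = 0.00599). The 3 dimmest, with means over all arrays of 5.15 to 5.60, gave -0.16, 0.04 and -0.23, and none was called. Probe sets of 1 gene read the same RNA and are not replicates.

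COL5A2 codes for the second chain of type V collagen and lies next to COL3A1 among the coding genes of the RefSeq pig table (assembly Sscrofa11.1). Its brightest probe set read 6.63, 6.46, 6.90 and 7.11 in adult RFH, 8.04, 7.48 and 7.55 in juvenile RFH and 8.28, 8.34 and 8.22 in juvenile WT arrays. The 3 groups did not overlap and stood in steps, with means of 6.77 for adult RFH, 7.69 for juvenile RFH and 8.28 for juvenile WT leaflets. The fall in adults was 1.88-fold (-0.91 ± 0.17, SE, limma adjusted p = 0.00614), and the juvenile RFH minus WT change was -0.60 ± 0.18 (SE, limma adjusted p = 0.219, unadjusted p = 0.00831). With array weights that juvenile change was called (-0.62, limma adjusted p = 0.0318), again without a share of calls over all genes beside it. The neighbouring gene COL3A1 had no such step between the juvenile groups.

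The dimmer COL5A2 probe set read 6.52, 6.42, 6.29 and 6.44 in adult RFH, 6.93, 6.73 and 7.01 in juvenile RFH and 6.80, 6.43 and 6.86 in juvenile WT arrays. It fell in adults by 0.47 on the log2 scale (limma adjusted p = 0.0235) and was not called once juvenile RFH replicate 1 (adjusted p = 0.081) or 3 (adjusted p = 0.0949) was left out. Between juvenile RFH and WT it gave 0.19 ± 0.13 (SE, limma adjusted p = 0.586), so that the 2 probe sets differed in sign there.

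COL5A3 codes for the third type V chain, which has a narrower tissue range. The brightest of its 3 probe sets read 7.48, 7.87, 8.55 and 8.64 in adult RFH, 9.27, 8.96 and 9.13 in juvenile RFH and 9.23, 8.77 and 8.88 in juvenile WT arrays. The adult arrays were below all juvenile arrays but spread over 1.16 log2 units. The change of -0.98 ± 0.26 (SE, limma adjusted p = 0.0251) lost its call without adult replicate 2 (-0.89, adjusted p = 0.0575), juvenile RFH replicate 1 (-0.91, adjusted p = 0.0932) or juvenile RFH replicate 3 (-0.98, adjusted p = 0.0783). Its other probe sets, with means of 5.79 and 5.37 over all arrays, gave -0.04 and 0.09, and neither was called. Juvenile RFH and WT differed by 0.16 ± 0.27 (SE, limma adjusted p = 0.866).

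COL6A2 codes for a short chain of collagen VI. Its 1 probe set read 10.14, 10.25, 11.20 and 10.88 in adult RFH, 11.22, 11.35 and 11.12 in juvenile RFH and 11.42, 11.38 and 11.24 in juvenile WT arrays. Adult replicate 3 lay inside the juvenile RFH range and the other 3 adults below it. The change was -0.61 ± 0.22 (SE, limma adjusted p = 0.0872) and passed without adult replicate 3 (-0.80, limma adjusted p = 0.0116). The juvenile RFH minus WT change was -0.12 ± 0.24 (SE, limma adjusted p = 0.891).

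COL6A3 codes for the long chain of collagen VI, whose cleaved end is the peptide endotrophin. Its 1 probe set read 11.20, 11.18, 12.39 and 12.43 in adult RFH, 13.40, 13.26 and 13.11 in juvenile RFH and 13.49, 13.34 and 13.27 in juvenile WT arrays. All adults were below all juveniles, with replicates 1 and 2 more than 1 log2 unit below replicates 3 and 4. The change was -1.46 ± 0.30 (SE, limma adjusted p = 0.00948), 2.75-fold, and the juvenile RFH minus WT change was -0.11 ± 0.32 (SE, limma adjusted p = 0.93).

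**Figure D2:**
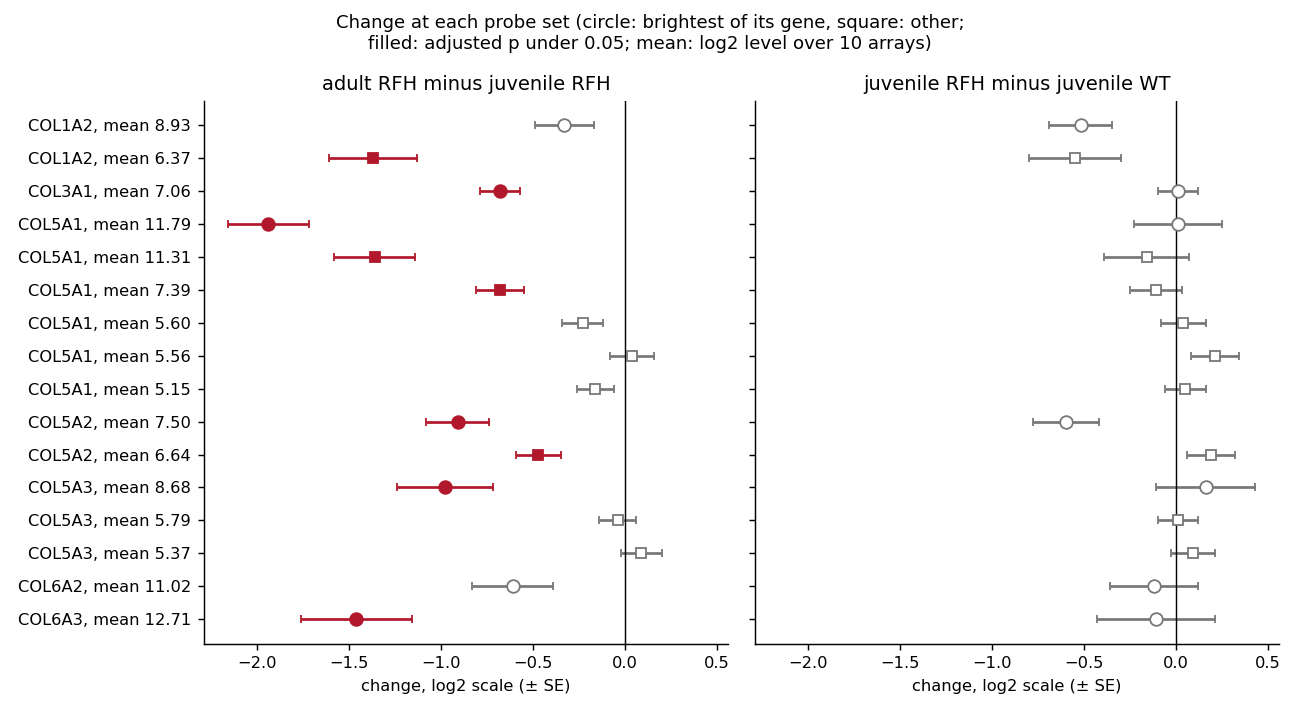
Change ± SE on the log2 scale (horizontal axis) at each of the 16 collagen probe sets, labelled by gene and mean level, for adult RFH minus juvenile RFH (left) and juvenile RFH minus juvenile WT (right). Filled symbols mark an adjusted p under 0.05: 9 of 16 on the left, all negative, and 0 on the right, while the 5 probe sets with a mean below 6 lie between -0.23 and 0.09 on the left.

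Over the 16 probe sets, 14 had a negative adult minus juvenile RFH change, 9 were called lower and none higher, beside 8.74% of all tested probe sets called lower (2098 of 23999). Of the 9 probe sets that were not the brightest of their gene, 4 were called. All 5 with a mean below 6 were among those not called. Over the 7 genes, 5 had adult arrays wholly below the juvenile RFH arrays, beside 13.3% of all genes. In the juvenile comparison 2 of the 7, COL1A2 and COL5A2, lay wholly below WT, beside 9.53% of all genes.

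By the means of the brightest probe sets the order of the groups differed between chains, and no difference in order was tested. For COL1A2 and COL5A2 adult RFH was lowest, juvenile RFH next and juvenile WT highest, with an overlap between the RFH groups for COL1A2. Neither juvenile step was called, and the dimmer probe sets showed other pictures: that of COL5A2 had a mean of 6.89 for juvenile RFH against 6.70 for juvenile WT, and in that of COL1A2 the juvenile groups overlapped, with means of 6.75 for juvenile RFH and 7.30 for juvenile WT. For COL3A1, COL5A1, COL5A3, COL6A2 and COL6A3 the juvenile groups overlapped, with juvenile RFH minus WT changes between -0.12 and 0.16, each smaller than its SE.

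The adult arrays also differed among themselves. The span from lowest to highest adult array had a median of 1.01 log2 units over the 7 genes, between 0.41 for COL3A1 and 1.26, beside 0.44 over all genes. In juvenile RFH arrays the median spans were 0.29 and 0.22, and in juvenile WT arrays 0.21 and 0.16, for the 7 genes and for all genes. COL5A1, COL5A2, COL5A3, COL6A2 and COL6A3 each had adult replicates 3 and 4 above replicates 1 and 2, and COL1A2 and COL3A1 did not. After each gene was centred on its own mean over the 10 arrays, the average of the 7 was -0.94, -0.96, -0.36 and -0.30 in the adult RFH arrays, 0.49, 0.29 and 0.26 in the juvenile RFH arrays and 0.61, 0.48 and 0.45 in the juvenile WT arrays.

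**Figure D3:**
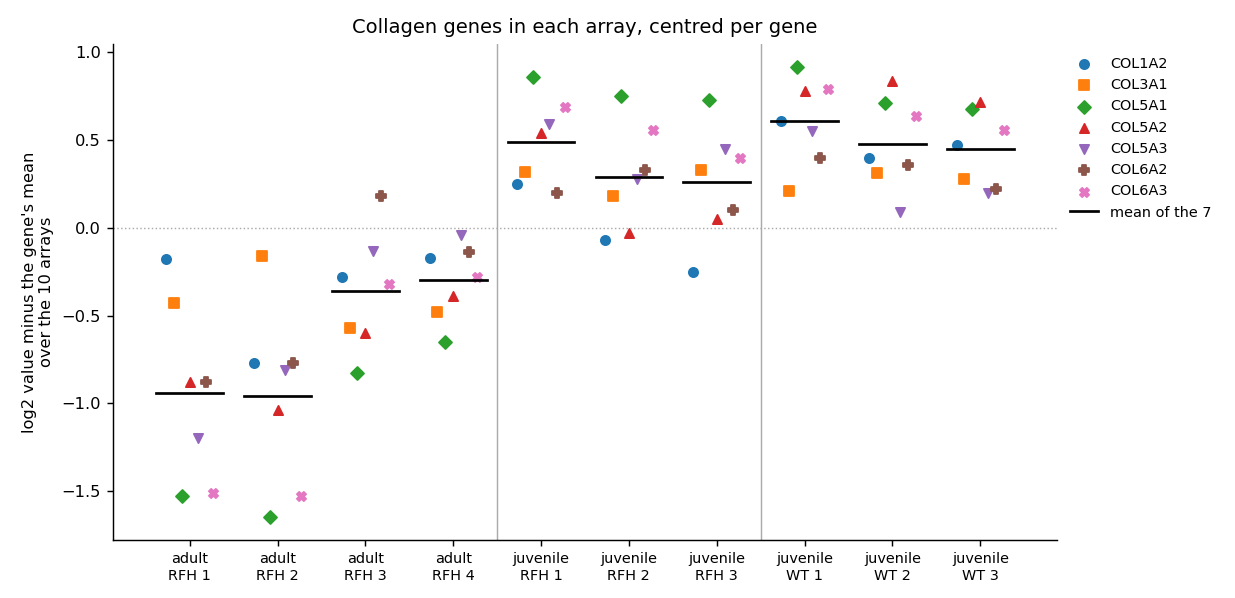
Log2 value of each collagen gene minus its own mean over the 10 arrays (vertical axis) in each array (horizontal axis), with a black bar for the mean of the 7. The mean lies at -0.94 and -0.96 in adult replicates 1 and 2 and at -0.36 and -0.30 in replicates 3 and 4, against 0.26 to 0.49 in the juvenile RFH arrays.

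How alike the profiles were is given as the root mean square (RMS) difference of centred values over the 10 arrays, in log2 units, as a description. The closest pairs were COL5A3 with COL6A2, at 0.24, and COL5A1 with COL6A3, at 0.25. COL1A2 and COL5A1 were the least alike, at 0.73. These values use the brightest probe sets only. The dimmer COL1A2 probe set, with an adult minus juvenile RFH change of -1.37 against -0.33 at the brightest, was not compared in this way. Among genes outside the 7, the 5 closest to their mean profile were FBN1, the microfibril protein fibrillin-1 (RMS 0.13), COL15A1, a collagen next to basement membranes (0.14), SPARCL1, a matricellular protein (0.14), ASPN, the small proteoglycan asporin (0.15), and NFIB, a transcription factor (0.15).

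These 5 genes had adult minus juvenile RFH changes of -0.96, -0.87, -1.0, -1.07 and -0.83, and juvenile RFH minus WT changes of 0.03, -0.28, -0.09, -0.05 and 0.01. FBN1 read 11.66, 11.53, 12.43 and 12.45 in adult RFH arrays, with the same split as collagen VI, and 13.02, 12.99 and 12.92 in juvenile RFH arrays. The 5 genes were picked for their closeness over these same arrays, so their similar changes follow from that choice. All arrays share the tissue, the platform and the age difference, which are part of any such likeness.

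Whether the brightest probe sets of paired genes changed by unequal amounts was tested for 7 pairs. The difference between both was taken within each array, with an exact two-sided permutation test over arrays. The brighter probe sets of COL5A1 read the same RNA, yet gave -1.94, -1.36 and -0.68 in adult against juvenile RFH arrays. The test therefore cannot tell an unequal change of chains from an unequal response of probe sets. The difference COL5A1 minus COL1A2 was -1.62 ± 0.23 (SE) in adult relative to juvenile RFH arrays, and COL5A2 minus COL1A2 by -0.59 ± 0.14 (SE). Within type V the values were -1.03 ± 0.18 (SE) for COL5A1 minus COL5A2 and 0.96 ± 0.13 (SE) for COL5A3 minus COL5A1, in each case with the larger fall in COL5A1. Each of these 4 had an exact permutation p of 0.0286, the smallest that 4 against 3 arrays allow, and an adjusted p of 0.05 over the 7 pairs, which is not under the threshold. COL6A2 minus COL6A3 (0.85 ± 0.16, SE) and COL6A3 minus COL1A2 (-1.13 ± 0.31, SE) had an exact permutation p of 0.0571 each. COL3A1 minus COL1A2 was -0.36 ± 0.27 (SE, exact permutation p = 0.314).

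Most of these differences depended on the choice of the brightest probe set. The averages take in the 5 probe sets of COL5A1 and COL5A3 with means below 6, whose changes lay between -0.23 and 0.09. An averaged change is the mean of the changes of the gene's probe sets, so these dim ones make it smaller in size. COL5A3 gave -0.31 when averaged and -0.98 at its brightest probe set, its others being dim. The pair differences were not computed without the dim probe sets. With all probe sets of a gene averaged, COL5A1 minus COL1A2 was 0.12, COL5A2 minus COL1A2 was 0.15, COL3A1 minus COL1A2 was 0.16, COL5A1 minus COL5A2 was -0.03 and COL6A3 minus COL1A2 was -0.61 (exact permutation p between 0.2 and 0.771 for these 5). COL5A3 minus COL5A1 was 0.41, with the same sign and an exact permutation p of 0.0286. The p-values of the averaged pairs were not adjusted over the pairs. COL6A2 and COL6A3 have 1 probe set each, so whether their difference depends on the probe set could not be checked. Between juvenile RFH and WT the smallest p that 3 against 3 arrays allow is 0.1, so no pair could pass.

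Few other collagen genes could be read, since a gene counted as measured only if a probe set was annotated with its symbol alone. Of 23999 tested probe sets 10069 had 1 symbol, so a gene not measured here may still be on the array. Of 19 listed fibrillar, fibril-associated and type VI collagens outside the 7, 2 were measured: COL11A1, a chain that can join type V molecules and lay low on the array with means of 5.12 in adult and 5.80 in juvenile RFH leaflets, fell by 0.67 on the log2 scale (limma adjusted p = 0.0161, and 0.0687 without juvenile RFH replicate 1), and COL2A1, the cartilage collagen, gave -0.17. Of 18 genes of other collagen types 6 were measured, 2 fell and none rose, with a median of -0.39. COL4A2, a basement membrane chain, fell by 1.61 on the log2 scale (limma adjusted p = 0.00201). COL15A1 fell by 0.87 (limma adjusted p = 0.0328), a call lost without adult replicate 1 or 2, without any 1 juvenile RFH array or without juvenile WT replicate 3 (adjusted p up to 0.104). The anchoring-fibril gene COL7A1 gave -0.59 (limma adjusted p = 0.0526), and was called without adult replicate 3 (adjusted p = 0.0138) or 4 (adjusted p = 0.0494).

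Many genes that fold, secrete and process collagen were lower in adults: 10 of 17 measured (35 listed) fell, 7 did not pass and none was called higher, and the median change was -0.55. The count was 6 without juvenile RFH replicate 1, the lowest with 1 array left out. LOX, which cross-links collagen and elastin, had means of 9.23 in adult RFH leaflets, 11.09 in juvenile RFH leaflets and 10.04 in juvenile WT leaflets, and in adults it fell by 1.87 ± 0.15 (SE, limma adjusted p = 4.3e-05). SERPINH1, the chaperone HSP47 that binds the collagen triple helix, fell by 0.96 ± 0.12 (SE, limma adjusted p = 0.000904). COLGALT1, which adds galactose to collagen hydroxylysine, fell by 0.55 ± 0.09 (SE, limma adjusted p = 0.0033). In juvenile RFH against WT leaflets LOX rose by 1.06 (limma adjusted p = 0.0485), the 1 call among these collagen lists there, and it was lost without any 1 juvenile array or adult replicate 4 (adjusted p up to 0.186).

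Fibril-binding proteoglycans and glycoproteins had 2 of 13 measured genes lower and none higher, with a median of -0.35. ASPN fell by 1.07 ± 0.15 (SE, limma adjusted p = 0.00138) and POSTN, the matricellular protein periostin, by 1.06 ± 0.20 (SE, limma adjusted p = 0.0057). Without adult replicate 3 the count was 7. Of 4 measured collagen receptor genes, ITGB1, the shared chain of the collagen-binding integrins, fell by 0.31 ± 0.08 (SE, limma adjusted p = 0.0278), and lost that call without juvenile RFH replicate 1, 2 or 3 (adjusted p = 0.0817, 0.0661 and 0.0863). Without adult replicate 1, 1 receptor gene was called higher.

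Genes of collagen breakdown had 1 of 13 lower and 2 higher, with a median of -0.08. TIMP1, an inhibitor of matrix metalloproteinases, had a mean of 13.50 in adult RFH against 11.53 in juvenile RFH arrays and rose by 1.97 ± 0.19 (SE, limma adjusted p = 0.000131). FAP, a surface protease of activated fibroblasts, rose by 1.01 ± 0.20 (SE, limma adjusted p = 0.00828). MMP2, a gelatinase, fell by 0.85 ± 0.26 (SE, limma adjusted p = 0.0475), a call lost without any 1 juvenile array or without adult replicate 1 or 2 (adjusted p up to 0.122), while without adult replicate 3 or 4 the list had 2 genes lower. In the list of TGF-beta signalling to collagen genes, 1 of 11 fell and 2 rose, with a median of 0.15. TGFB1, a ligand known to raise collagen transcription, had a mean of 9.53 in adult RFH against 8.11 in juvenile RFH arrays (1.42 ± 0.20, SE, limma adjusted p = 0.00147). SMAD3, which carries that signal to the nucleus, rose by 0.79 ± 0.16 (SE, limma adjusted p = 0.00828), and the co-receptor gene TGFBR3, also low on the array at 5.20 in adult and 6.15 in juvenile RFH leaflets, fell by 0.95 ± 0.17 (SE, limma adjusted p = 0.00473). Without adult replicate 4, 2 genes of that list were lower.

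**Figure D4:**
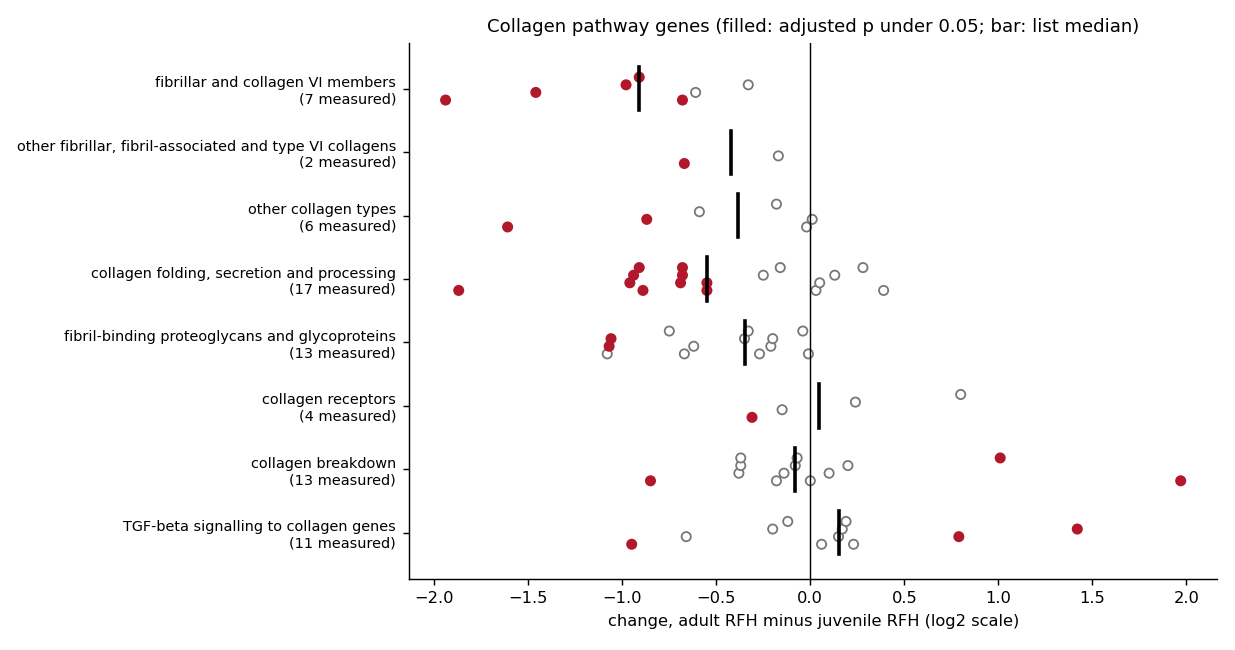
Adult RFH minus juvenile RFH change on the log2 scale (horizontal axis) of each measured gene in the collagen pathway lists, 1 point per gene, filled where the adjusted p is under 0.05, with a black bar for the list median. The folding, secretion and processing list has 10 filled points, all negative, while the breakdown list has TIMP1 at 1.97 and FAP at 1.01 on the positive side.

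Markers of other cell types moved with the adult arrays. Of 9 measured macrophage markers (12 listed) 5 rose in adults and none fell, and the list's mean was 11.34, 11.42, 10.88 and 10.84 in adult RFH, against 10.43 to 10.44 in juvenile RFH and 9.96 to 10.11 in juvenile WT arrays. It was higher in adult replicates 1 and 2, where COL5A1, COL5A2, COL5A3, COL6A2 and COL6A3 were lower, but not COL1A2 and COL3A1. Of 5 measured adipocyte markers (7 listed) 2 rose, with list means of 7.18, 7.07, 6.21 and 5.98 in adult RFH, against 5.31 to 5.47 in juvenile RFH and 5.21 to 5.44 in juvenile WT arrays. FABP4, which carries fatty acids in adipocytes and in macrophages, rose by 3.83 ± 0.58 (SE, limma adjusted p = 0.00213). LPL, a lipase of fat, muscle and macrophages, rose by 1.17 ± 0.33 (SE, limma adjusted p = 0.0354), a call lost without adult replicate 1 or any 1 juvenile array (adjusted p up to 0.104). PPARG, a regulator of fat cell genes, gave 1.11 (limma adjusted p = 0.13) and LEP, the hormone leptin, -0.13 (limma adjusted p = 0.317). ADIPOQ, the hormone adiponectin, had means of 4.20, 4.08 and 4.33 in adult RFH, juvenile RFH and juvenile WT arrays. Of 10 measured endothelial markers (11 listed) 3 rose and 1 fell, with list means of 8.75 to 9.79 in adult RFH, 8.56 to 8.89 in juvenile RFH and 8.20 to 8.56 in juvenile WT arrays. With 1 array left out, 4 to 7 macrophage markers were higher. For adipocyte markers the count was 1 to 3, and it was 1 without adult replicate 1 or any 1 juvenile array. For endothelial markers it was 2 to 6, and it was 6 without adult replicate 3.

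The fibroblast list had 2 of 8 lower and 1 higher, with means of 11.99, 11.64, 12.07 and 12.19 in adult RFH, at most 12.02 in juvenile RFH and 11.91 to 11.98 in juvenile WT arrays. When any 1 juvenile RFH array was left out, none of the list was called lower. Smooth muscle markers had 1 of 6 lower (0 without juvenile RFH replicate 1 and 2 without adult replicate 3), with means of 9.72 to 10.54 in adult RFH, 10.38 to 10.56 in juvenile RFH and 10.35 to 10.43 in juvenile WT arrays. Of 3 measured red cell genes 2 were lower in adults (1 without juvenile RFH replicate 1 or 2), with means of 6.28 to 7.24 in adult RFH, 7.56 to 8.48 in juvenile RFH and 6.83 to 7.34 in juvenile WT arrays. None of 5 lymphocyte markers was called. Of 4 cartilage markers 1 was higher, a call lost without any 1 juvenile RFH array, and 2 were lower without adult replicate 3. None of the 10 cardiac muscle markers passed (1 lower without juvenile RFH replicate 1, 1 higher without adult replicate 3, and 1 each way without adult replicate 1), and with their mean as a covariate 5 of the 7 collagen genes were called with a median of -1.04. The part of the macrophage, adipocyte, endothelial and red cell markers in the collagen result was not tested.

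**Figure D5:**
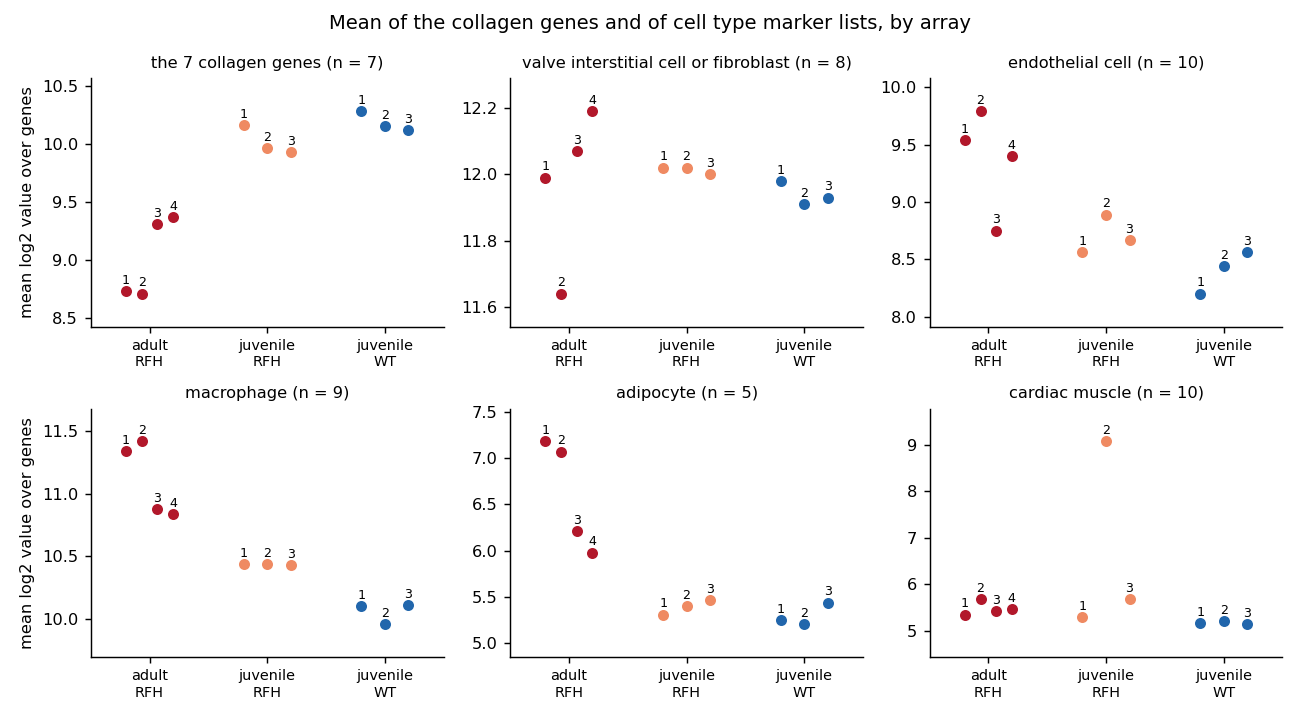
Mean log2 value over the measured genes of each list (vertical axis, own scale in each panel; n is the number of genes) in every array, for adult RFH, juvenile RFH and juvenile WT leaflets. In adult replicates 1 and 2 the collagen mean is at 8.73 and 8.71 and the macrophage mean at 11.34 and 11.42, against 9.93 to 10.16 and 10.43 to 10.44 in the juvenile RFH arrays.

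Control probe sets were read beside these results. As a measure of RNA breakdown, the 3' minus 5' readings of the actin, GAPDH and EF1A controls averaged 2.24 ± 0.45 (SD, n = 4) in adult RFH leaflets, against 2.25 ± 0.14 (SD, n = 3) in juvenile RFH leaflets (exact two-sided permutation p = 0.943). They averaged 2.09 ± 0.09 (SD, n = 3) in juvenile WT leaflets. Adult replicates 1 to 4 read 1.75, 2.25, 2.84 and 2.12, so replicate 3 was the highest and replicate 1 the lowest of all arrays. The part of this spread in the collagen differences among the adult arrays was not tested. The 12 poly-A control probe sets, RNAs added during labelling, averaged 7.66 ± 0.20 (SD, n = 4) in adult RFH against 6.84 ± 0.01 (SD, n = 3) in juvenile RFH arrays, a difference of 0.82 (exact two-sided permutation p = 0.0286, the smallest possible). They were lower by 0.23 in juvenile RFH than in juvenile WT arrays (exact permutation p = 0.1, the smallest possible). The part of the labelling controls in the collagen result was not tested.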

How the data were processed

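The authors deposited log2 expression values for 24123 probe sets on 10 arrays, without missing values or detection calls in the columns used. Log2 was inferred from the range of the values, and array medians of 6.96 to 7.03 show that arrays had been brought to 1 scale. R 2.15.2 is named in the submitters' processing notes, but how background, scaling and summarisation were done is "not given in the sources used here". The tests leave out 124 control probe sets. Genes were named where the array annotation gives 1 symbol (10069 probe sets, 6765 genes), and the brightest probe set stood for a gene.

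Group means were fitted over all 10 arrays with limma 3.58.1 (R 4.3.3), followed by contrasts and eBayes, with two-sided tests adjusted by the Benjamini-Hochberg method over 23999 probe sets. SE is limma's moderated one. "Fell" and "rose" mean an adjusted p under 0.05. The fit was tested on simulated data, and other scalings, filters, priors, covariates and left-out arrays were tried as alternatives. Pairs of genes and control probe sets were compared with exact permutation tests (scipy 1.17.1, Python 3.11.15). The 7 genes, the lists and the pairs were chosen with earlier results of these data known. From each other list, up to 3 called genes per direction with the smallest p were named, and any measured collagen chain could be. No genome of the array's build was used, so no positions are given.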

Additional observations from a re-analysis of the deposited data

Results flagged for a closer look

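In 1 of 32 groups examined for an outlying array (the 4 adult RFH arrays at each of the 16 collagen probe sets were among them), 1 array stood apart. At the dimmer COL1A2 probe set adult RFH replicate 2 read 5.02, and the other adult arrays read 5.48, 5.52 and 5.53. Its gap to the nearest of them was 0.898 of the group's range, above Dixon's critical value for 4 arrays. Chance flags about 1 in 20 groups. Adult replicate 2 was also the lowest adult array at the brightest COL1A2 probe set, at 8.15.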

How the results depend on the processing

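In each of 23 alternatives (quantile, median-centred or cyclic loess scaling, dim probe sets left out, values below 4 raised to 4, only the 2 groups compared, a trended and robust prior, array weights, a replicate block, a single probe set for each gene in the adjustment or all its probe sets averaged, the 3' to 5' or the cardiac mean as a covariate, and each array left out) all 7 collagen genes kept a negative adult minus juvenile RFH change. Between 4 and 6 of the 7 were called, with medians of -1.04 to -0.69, and between 4 and 6 with 1 array left out. The count for juvenile RFH against WT was 0 in every alternative except array weights, where it was 2. The share of all genes called with array weights is not given here. COL3A1, COL5A1, COL5A2 and COL6A3 were called in all 23 for adult against juvenile RFH. COL5A3 was not called in 6: without adult RFH replicate 2, juvenile RFH replicate 1 or juvenile RFH replicate 3, with values below 4 raised to 4 (adjusted p = 0.0621), with only the 2 groups (adjusted p = 0.0595) and with the mean of its probe sets (-0.31, adjusted p = 0.0839), which takes in 2 dim ones. COL6A2 was called in 2, without adult RFH replicate 3 and with the 3' to 5' covariate (-0.60, adjusted p = 0.0282). With all probe sets of a gene averaged, the COL5A1 change was -0.72 and the pair differences moved to 0.16, 0.12, 0.15, 0.41, -0.03 and -0.61 for COL3A1 minus COL1A2, COL5A1 minus COL1A2, COL5A2 minus COL1A2, COL5A3 minus COL5A1, COL5A1 minus COL5A2 and COL6A3 minus COL1A2.

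Deviations of same-numbered arrays from their group means had correlations across probe sets of -0.156 to 0.185. Arrays with different numbers were not compared in this way, so whether the numbers pair the arrays was not settled. With the replicate block 5 of the 7 were called for adult against juvenile RFH, with a median of -1.02, and 0 for juvenile RFH against WT, with a median of -0.11. No detection calls were used, so for low probe sets, among them the 5 collagen ones with means below 6 and those of COL11A1 and TGFBR3, it was not tested whether the signal was above background.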
